A study of Solanum lycopersicum with 6 samples.

Results

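The miR398 and miR408 families of tomato (*Solanum lycopersicum*) were examined in small RNA libraries from pedicels of *hws-1* and wild-type (WT) plants. Rows were taken by name, as every listed row called miR398 or miR408 with or without a letter for the locus. This gave 40 of the 826 rows of the 6 libraries. The families themselves were chosen with earlier results of these data known. *hws-1* is a weak allele of *HAWAIIAN SKIRT*, which encodes an F-box protein, and was induced by ethyl methanesulfonate in the cultivar 'Micro-Tom'. The *hws-1* plants came from a backcrossed (BC3) population, and the paper's methods do not state the origin of the WT plants. Both lines were sampled 10 days after anthesis with 3 libraries each, and every sample pooled 5 distal pedicel segments, taken from the stretch distal to the abscission zone. A whole segment holds phloem, xylem, cambium and parenchyma, so a change in the number of cells of a type cannot be told apart from a change in RNA per cell. The paper reports a larger phloem and an earlier start of rapid pedicel growth in *hws-1*. Tissue make-up and stage of growth therefore cannot be told apart from line at this day. The lists hold only miRNAs, so the labelled tissue was not checked against marker genes.

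Both families are conserved among flowering plants and are known as copper-responsive miRNAs. In Arabidopsis, the transcription factor SPL7 activates their genes when copper is scarce. miR398 then guides cleavage of transcripts for copper/zinc superoxide dismutases, which remove superoxide, and for CCS, the chaperone that delivers copper to them. miR408 guides cleavage of transcripts for plantacyanin, a small blue copper protein of the cell surface, and for laccases, the copper oxidases that polymerize lignin in vascular tissue. Repressing these abundant copper proteins is thought to spare copper for plastocyanin in photosynthesis. Transcripts of the targets and copper contents were not measured here.

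For each library, the authors deposited miRNA designations with 1 value each, in reads per 1000000 (RPM; the paper calls the values TPM). A designation names the family, the locus letter, how the locus was recognised (as Known or Probable, apart from a few rows), the hairpin arm (5p or 3p) and whether that arm was taken as the mature or the star strand. All 18 miR398 rows are Known. The 22 miR408 rows comprise 12 Known and 10 Probable rows. Each of the 3 *hws-1* libraries lists 2 miR398 loci, miR398a and miR398b, whereas each of the 3 WT libraries lists 1, called miR398. For miR408, every library lists 2 loci except WT replicate 3, which lists 1. Because the number of listed loci differs, rows were summed by family and arm within each library. The value of a single read was inferred as the largest step of which at least 30% of the values above 0 were whole multiples. It lay between 5.55 and 8.76 RPM in *hws-1* and between 3.19 and 3.88 RPM in WT. Values were thus taken as scaled from 114212 to 180179 reads in *hws-1* and from 257797 to 313526 reads in WT. The paper states a depth of 1000000 reads per sample, and the lists give no read numbers. By the inferred depth, the shallowest WT library was still deeper than the deepest *hws-1* library, so depth and line cannot be told apart. The listed rows took 14.5% to 22.1% of the reads in *hws-1* and 13.7% to 17.9% in WT.

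The families were chosen for study with the difference between the lines already known, so that difference is described below without a p-value for either family. Together, miR398 and miR408 made up 2.75%, 3.28% and 1.60% of the listed miRNA signal in *hws-1* replicates 1, 2 and 3, against 0.849%, 0.878% and 0.725% in WT replicates 1, 2 and 3. The miR398 total was 2759 ± 1335 RPM in *hws-1* and 397 ± 25.0 RPM in WT (SD, n = 3 each), a ratio of 6.95. The miR408 total was 1988 ± 896 RPM in *hws-1* and 896 ± 223 RPM in WT (SD, n = 3 each), a ratio of 2.22. The miR398 total was above the miR408 total in 3 of 3 *hws-1* libraries and below it in 3 of 3 WT libraries. The order in *hws-1* rests on a second miR398 locus that is listed only there. Reads that fit both loci may have been shared between them, so leaving out this locus may also leave out reads of the other. With 1 locus per family, the one found at a corresponding place in all 6 libraries, both arms of miR398 summed to 1240.4, 2576 and 925 RPM in *hws-1* replicates 1, 2 and 3, under the 1682, 2748 and 1094 RPM of miR408.

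**Figure D1:**
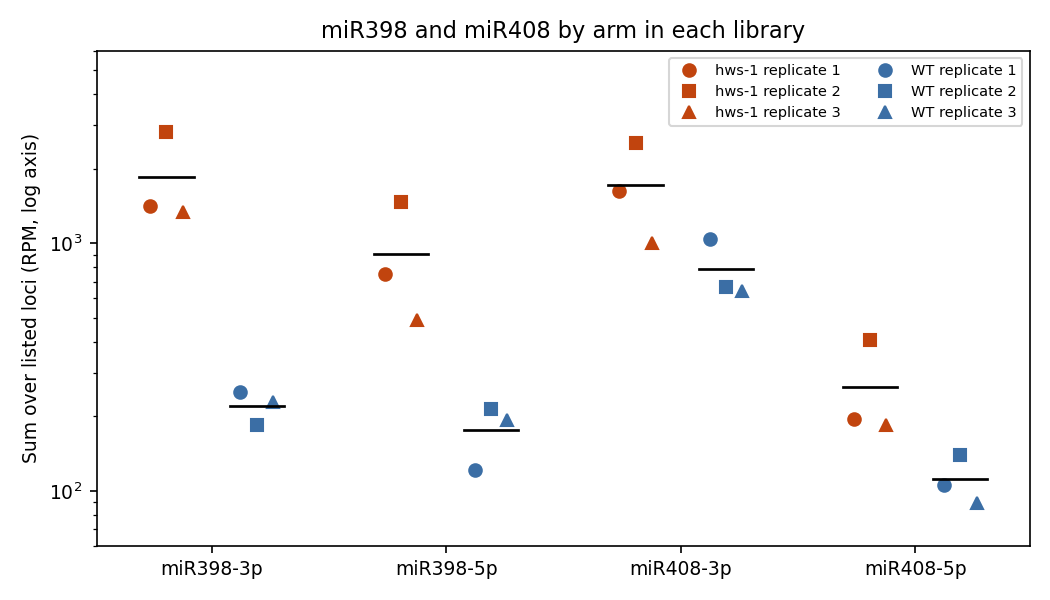
Sum over the listed loci of each family and arm (RPM, log axis) in each library, with *hws-1* in orange to the left of WT in blue, and a black bar for the mean of the 3 libraries. The *hws-1* libraries lie above the WT libraries in 3 of the 4 sums, and in miR408-3p the lowest *hws-1* library (1007 RPM) lies just under the highest WT library (1044 RPM).

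The 3p arm of miR398, which carries the strand known to direct cleavage of superoxide dismutase transcripts, showed the widest separation. miR398-3p had 1415, 2817 and 1334 RPM in *hws-1* replicates 1, 2 and 3, against 250.4, 184 and 229 RPM in WT replicates 1, 2 and 3. The lowest *hws-1* library was 5.33 times the highest WT library. These values rest on 152.3 to 443 reads in *hws-1* and on 47.3 to 78.5 reads in WT. The means were 1856 ± 834 RPM in *hws-1* and 221 ± 34.1 RPM in WT (SD, n = 3 each), a ratio of 8.40, and the log2 difference was 2.99 with a standard error of 0.38 in limma. Between same-numbered replicates, the ratio was 5.65, 15.3 and 5.83. *hws-1* replicate 2 was far above the other two *hws-1* libraries, and without it the log2 difference was 2.64.

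The 5p arm, the partner strand in the hairpin, also separated the lines. miR398-5p had 749, 1471 and 490.3 RPM in *hws-1* replicates 1, 2 and 3, against 121, 213 and 193 RPM in WT replicates 1, 2 and 3. Again *hws-1* replicate 2 was the highest library, and the lines did not overlap in RPM. In reads before scaling, miR398-5p had 135, 231.3 and 56 in *hws-1* replicates 1, 2 and 3, against 38, 55 and 54 in WT replicates 1, 2 and 3. In reads, *hws-1* replicate 3 thus lay close to WT replicates 2 and 3, and it stands apart from them once reads are divided by the inferred depth. The ratio of the means, 904 ± 508 RPM in *hws-1* to 176 ± 48.4 RPM in WT (SD, n = 3 each), was 5.14, and the log2 difference was 2.25 with a standard error of 0.45 in limma.

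Part of the miR398 difference lies on miR398b, a locus listed in *hws-1* alone. Why no WT list holds it was not tested and cannot be read from the lists. The single WT locus and miR398a of *hws-1* stand at a corresponding place: each follows miR6027, miR6022 or miR8635c and precedes a miR172 locus or miR9471a. RefSeq (assembly SLM_r2.1) was consulted for gene names and their order alone. The only miR398 gene annotated there, MIR398a, lies between MIR6022 and MIR9478 among the miRNA genes. Of these neighbours, only miR6022 stands directly beside the locus in the lists, in *hws-1* replicate 2. By contrast, miR398b is the last locus of all 3 *hws-1* lists, and no WT list has a miR398 row there. miR398b-3p had 705, 1143 and 698 RPM in *hws-1* replicates 1, 2 and 3. miR398a-3p had 710.4, 1675 and 636 RPM in the same libraries, against the 250.4, 184 and 229 RPM of the WT locus. At this one place, the ratio of the means was 4.56 for the 3p arm and 3.26 for the 5p arm, so that 1 locus alone still separated the lines. The corresponding log2 differences were 2.05 (standard error 0.42 in limma) and 1.59 (0.46); this choice of locus was made with the values in view.

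Reads that fit several positions were shared out as fractions, and the values show such sharing. In *hws-1* replicate 2, miR398a-3p amounted to 263.3 reads and miR398b-3p to 179.7 reads, which sum to 443. The 3p arm of miR398a was 1.01, 1.47 and 0.912 times that of miR398b in *hws-1* replicates 1, 2 and 3. Values of *hws-1* at 1 locus may therefore leave out reads that also fit that locus. WT replicates 1 and 2 had 78.5 and 47.3 reads on their single miR398-3p row, and both loci of *hws-1* replicate 3 summed to 152.3 reads, so a share of some reads there was given to positions that the lists do not show under this family. How large that share is cannot be read from the lists. Whole numbers of reads stood on the miR398-3p row of WT replicate 3 (64). The same held for the miR398-5p rows of WT replicates 1, 2 and 3 (38, 55 and 54). The ratio of 8.40 compares 2 listed loci with 1, and any reads of an unlisted locus would be missing from it. Whether WT has such reads cannot be read from the lists.

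**Figure D2:**
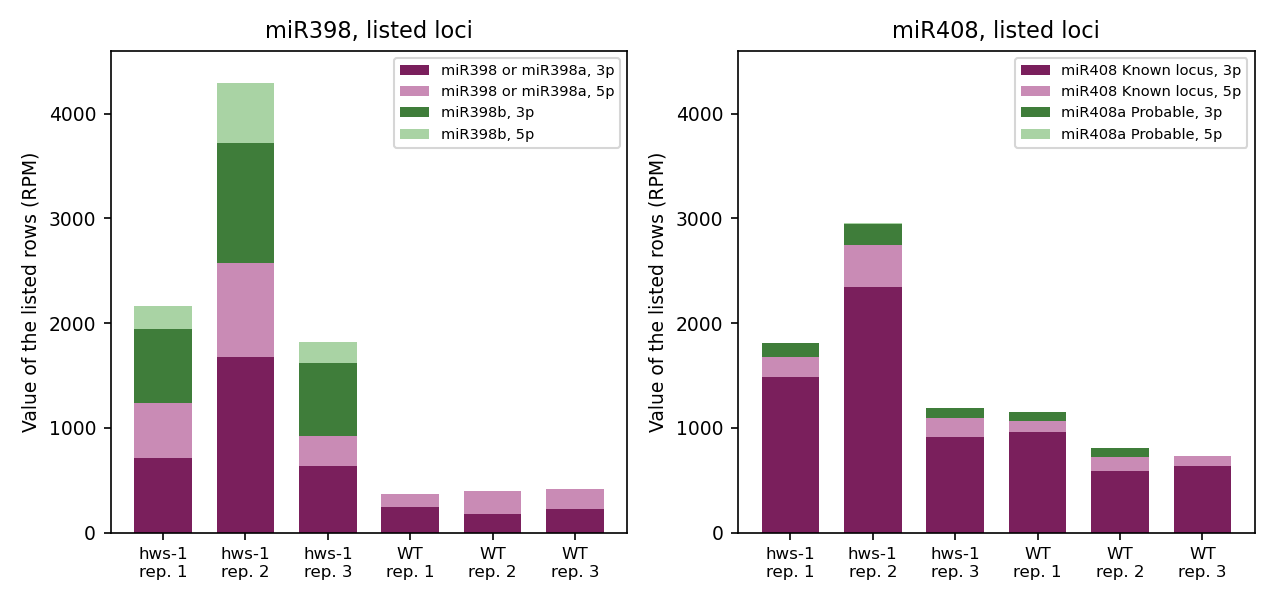
Stacked values (RPM) of the listed loci and arms of miR398 (left) and miR408 (right) in each library, with *hws-1* libraries to the left of WT libraries. The locus miR398b is listed only in *hws-1*, where its 3p arm reached 698 to 1143 RPM, while in miR408 nearly all signal lies on the Known locus of every library.

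In miR408, the 3p arm, which carries the strand known to act on plantacyanin and laccase transcripts, was the larger. miR408-3p had 1621, 2550.4 and 1007 RPM in *hws-1* replicates 1, 2 and 3, against 1044, 667 and 641 RPM in WT replicates 1, 2 and 3. The lines overlapped, since *hws-1* replicate 3 lay under WT replicate 1, and the 95% Wilson intervals of these libraries, 839 to 1208 RPM for *hws-1* replicate 3 and 936 to 1162 RPM for WT replicate 1, cover each other's values. These intervals, and all others of this kind, cover only counting error at the inferred depth. The means were 1726 ± 777 RPM in *hws-1* and 784 ± 225 RPM in WT (SD, n = 3 each), a ratio of 2.20. Its log2 difference was 1.07 with a standard error of 0.41 in limma, and 0.74 without *hws-1* replicate 2. In reads before scaling, miR408-3p had 292, 401 and 115 in *hws-1* replicates 1, 2 and 3, against 327.3, 172 and 179.5 in WT replicates 1, 2 and 3. The lines thus overlapped widely in reads, and the difference appears once reads are divided by the depth of each library.

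The 5p arm of miR408 was about as different between the lines, at a lower level. miR408-5p had 194, 407 and 184 RPM in *hws-1* replicates 1, 2 and 3, against 105, 139.6 and 89.3 RPM in WT replicates 1, 2 and 3. The lines did not overlap, though the lowest *hws-1* library was only 1.32 times the highest WT library and rested on 21 reads. Its 95% Wilson interval of 120.3 to 281 RPM overlaps that of WT replicate 2, 101 to 193 RPM. The ratio of the means, 262 ± 126 RPM in *hws-1* to 111 ± 25.7 RPM in WT (SD, n = 3 each), was 2.35, with a log2 difference of 1.15 and a standard error of 0.40 in limma.

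miR408 could also be followed at a single locus in all 6 libraries. The Known miR408 locus always directly precedes miR166b. MIR408, the only miR408 gene in RefSeq, lies between MIR164b and MIR166c, whereas the lists have miR8033 before the miR408 loci. On the Known locus alone, miR408-3p had 1487, 2347 and 911 RPM in *hws-1* replicates 1, 2 and 3, against 962, 586 and 641 RPM in WT replicates 1, 2 and 3. The ratio was 2.17 for its 3p arm and 2.33 for its 5p arm, close to those of the sums. The Probable locus miR408a, listed directly before it in 5 libraries, held 8.22%, 7.98% and 9.57% of miR408-3p in *hws-1* replicates 1, 2 and 3, against 7.89% and 12.2% in WT replicates 1 and 2. Its 5p row was listed at 0 in 4 of these 5 libraries and at 6.36 RPM, a single read, in *hws-1* replicate 2. A value of 0 allows up to 3 reads, which is 16.7 and 26.3 RPM in *hws-1* replicates 1 and 3 and 9.57 and 11.6 RPM in WT replicates 1 and 2.

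The balance of the strands differed between the families. In miR398, the 3p sum was 1.89, 1.92 and 2.72 times the 5p sum in *hws-1* replicates 1, 2 and 3, against 2.07, 0.861 and 1.19 times in WT replicates 1, 2 and 3. WT replicate 2 was the only library with more 5p than 3p, and there the 5p row was designated mature and the 3p row star, the reverse of all other miR398 rows. The lines overlapped, because WT replicate 1 lay above *hws-1* replicates 1 and 2. Between the *hws-1* loci, 3p exceeded 5p by 3.22, 2.01 and 3.46 times on miR398b and by 1.34, 1.86 and 2.20 times on miR398a in replicates 1, 2 and 3. In miR408, the 3p sum was 8.34, 6.27 and 5.48 times the 5p sum in *hws-1* replicates 1, 2 and 3, against 9.92, 4.78 and 7.18 times in WT replicates 1, 2 and 3. Hence the miR408 strands kept a similar balance in both lines, with a log2 difference of -0.08 in the ratio that changed sign without WT replicate 1 (0.18) or without *hws-1* replicate 3 (0.06).

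By value, the 2 families ranked the *hws-1* libraries in the same order but not the WT libraries. Counting error does not settle either order in full. In *hws-1*, both miR398-3p and miR408-3p were highest in replicate 2, intermediate in replicate 1 and lowest in replicate 3. For miR398-3p, the Wilson intervals of *hws-1* replicates 1 and 3 overlap, at 1252 to 1600 and 1136 to 1560 RPM. *hws-1* replicate 2 stood above the mean of its line by 0.69 in miR398-3p, 0.85 in miR398-5p, 0.66 in miR408-3p and 0.74 in miR408-5p, all on the log2 scale. This library also had the largest sum of listed rows, at 221112 RPM, and the part of this height in the values of the families was not tested. In WT, miR408-3p was highest in replicate 1 (0.45 above the mean of the line, log2), as was miR398-3p (0.19), while miR408-5p and miR398-5p were highest in replicate 2 (0.35 and 0.32). The 3p orders of the families part only at WT replicates 2 and 3. The Wilson intervals of these libraries overlap for miR408-3p (575 to 775 and 556 to 744 RPM) and for miR398-3p (137 to 242 and 179 to 292 RPM). Whether the WT orders differ is therefore not settled. With 3 libraries a line and lines that form separate clusters, no correlation between the families was computed.

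Relative to miR408-3p, miR398-3p was at 0.873, 1.10 and 1.32 times in *hws-1* replicates 1, 2 and 3, against 0.240, 0.275 and 0.357 times in WT replicates 1, 2 and 3. This ratio lies within a library and does not depend on its scaling, but it does depend on the loci summed. The lines did not overlap, and the log2 difference between the lines was 1.92, within 1.77 to 2.07 when each library was left out in turn. The miR398-5p to miR408-5p ratio separated the lines less widely, at 3.86, 3.61 and 2.67 in *hws-1* against 1.15, 1.53 and 2.16 in WT. With 1 locus per family at a corresponding place, the miR398-3p to miR408-3p ratio was 0.478, 0.714 and 0.699 in *hws-1* replicates 1, 2 and 3, against 0.260, 0.313 and 0.357 in WT replicates 1, 2 and 3. The lines still did not overlap, and the log2 difference was 1.01 in place of 1.92.

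**Figure D3:**
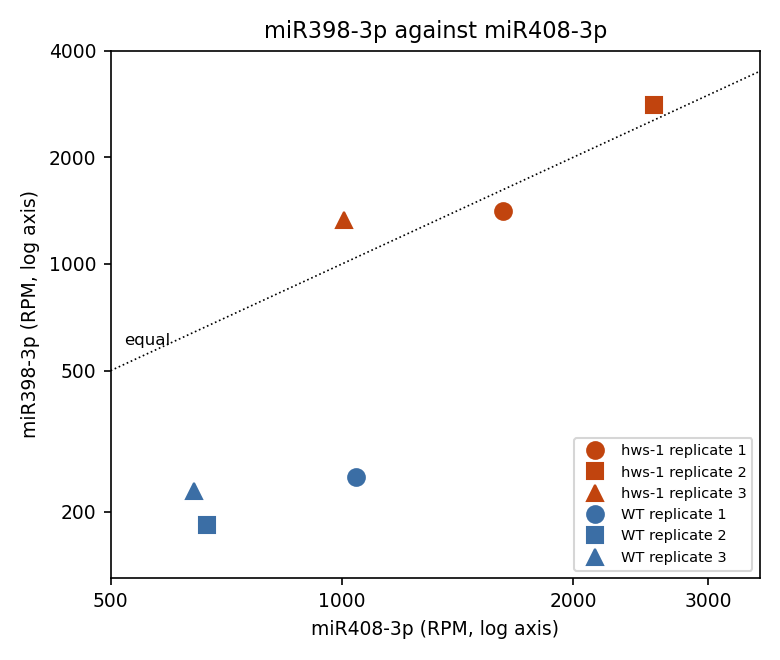
miR398-3p against miR408-3p in each library (RPM, log axes, sums over the listed loci), with *hws-1* in orange and WT in blue and a dotted line where the sums are equal. The 3 *hws-1* libraries lie near this line, at 0.873 to 1.32 times, and the 3 WT libraries lie below it, at 0.240 to 0.357 times.

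Among all sums of a family and arm, 42 were listed in all 6 libraries, and the median ratio of *hws-1* to WT over them was 1.06. The ratios of miR398-3p and miR398-5p were the highest and the second highest, and those of miR408-5p and miR408-3p the fourth and the fifth. The third was miR164-5p (2.61), of a family that represses NAC transcription factors. All 4 sums of the families had a ratio of at least 2, where 6 of all 42 sums, or 14.3%, did. No overlap with WT was seen for 3 of the 4, where 8 of the 42 sums, or 19.0%, had all *hws-1* libraries above the highest WT library. Between same-numbered replicates, *hws-1* was higher each time for 4 of the 4, compared with 12 of the 42 sums, or 28.6%. These counts describe families that were chosen with the ratios known, and nothing is read from them. In limma, 3 of the 42 sums, or 7.14%, had an adjusted p under 0.05 after Benjamini-Hochberg adjustment, and 6 did in the fit that paired same-numbered samples by a replicate block. No call is given for miR398 or miR408, since they were chosen on this same difference.

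**Figure D4:**
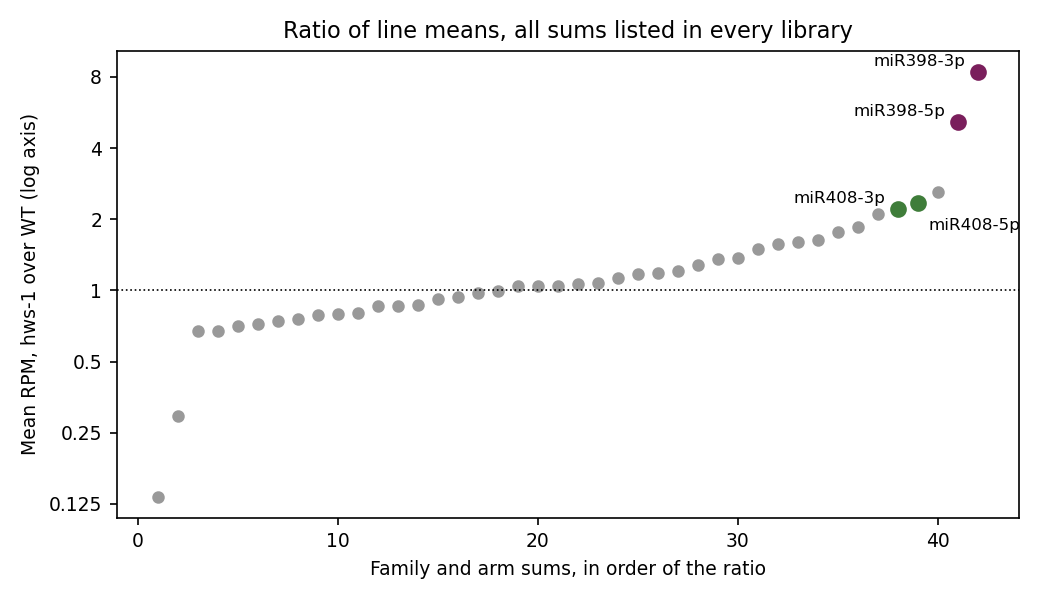
Ratio of mean RPM in *hws-1* over WT (log axis) for the 42 sums of a family and arm listed in every library, in order of the ratio, with miR398 in purple, miR408 in green and the other sums in grey. The miR398 arms stand apart at 5.14 and 8.40, and the miR408 arms, at 2.20 and 2.35, are joined by the upper end of the other sums.

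Sums of similar abundance are set beside these ratios as description alone, since the families were chosen with the ratios known. The miR398-3p ratio compares 2 listed loci in *hws-1* with 1 in WT. Of the 13 other sums with a WT mean within 3-fold of miR398-3p, ratios ran from 0.675 to 1.85 with a median of 1.04. Of the 14 other sums within 3-fold of miR408-3p, they ran from 0.676 to 2.61 with a median of 1.04, and 1 reached 2. Likeness of pattern over the 6 libraries was measured as the root mean square distance between log2 values, each centred on its own mean. Outside the families, miR164-5p (0.92), miR5300-3p (1.12) and miR396-3p (1.15) were closest to miR398-3p among 38 sums. Their distances exceeded that of its own 5p arm (0.55), and miR408-3p stood at 0.99. Closest to miR408-3p were miR482-3p (0.45), miR162-3p (0.48) and miR6026-5p (0.50), all nearer than miR398-3p, while its own 5p arm was nearest of all at 0.35. By this measure miR408-3p was less like miR398-3p than like 28 of the 38 sums outside the families. The distance takes in the size of the line difference, on which the families were chosen, and the number of loci summed. It therefore does not show whether the 2 families share regulation, which was not tested.

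Other nutrient-responsive miRNAs gave little to set beside these families. No row of the 6 lists is named miR397 or miR857, further copper-responsive families that act on laccases in Arabidopsis, nor miR1444, which acts on polyphenol oxidases in poplar. miR395, induced by sulfate shortage, was listed at totals of 39.2 and 45.3 RPM in WT replicates 1 and 3, with 8 and 9 loci. miR399, induced by phosphate shortage, was listed at 50.2 and 66.7 RPM in WT replicates 1 and 2, with 5 and 4 loci. No *hws-1* list holds a row of either family or of miR827. Listing depends on depth, since a single read was worth up to 8.76 RPM in *hws-1*, so these absences are not evidence of lower abundance.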

How the data were processed

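Per the paper's methods and the file headers, the authors ran sRNAminer (One Step pipeline, default settings) on 1 library at a time, in which reads were trimmed, collapsed, freed of rRNA and organelle reads and aligned with bowtie. Versions and the genome build are not given in the sources used here. The deposited values are RPM, scaled by the authors to 1000000 reads of the library and not divided by length. No count model was fitted, since the values are already normalized. Between 32.3% and 38.0% of the values above 0 were whole multiples of the inferred value of 1 read (tolerance 1e-06). A share of at least 30% was required in choosing that value.

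The members and lists were chosen with earlier results of these data known. Named are all rows of the families, a copper list, a nutrient list, the 3 sums closest in pattern to each 3p arm, and sums named after their values were seen. The 20 rows marked neither Known nor Probable were left out, since their numbers name no family. Sums listed in all 6 libraries (42 of 72) were fitted with limma (version 3.58.1, R 4.3.3) as log2(RPM + 1), with line as the only term. A log2 difference on this scale understates changes of low sums. On simulated data for this comparison, with 4 of 42 sums changed, limma recovered 13.5% of 2-fold, 75.6% of 4-fold and 93.8% of 8-fold changes.

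Samples were grouped by the labels, which give replicate numbers. Deviations of same-numbered samples from their line means had correlations of 0.36, 0.22 and 0.12 over the 42 sums, against -0.43 to 0.14 for other pairs. Alternatives were other pseudocounts (0.1 and 10), filters, scalings, locus choices, an intensity trend, a replicate block, and fits without each library. The labels name biological replicates of bulked segments. Other steps used Python 3.11.15, scipy 1.17.1, numpy 2.4.6, pandas 2.3.3 and matplotlib 3.10.9.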

Additional observations from a re-analysis of the deposited data

How the results depend on the processing

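The differences between the lines in the 4 sums, the 2 totals, the miR398 strand ratio and the miR398-3p to miR408-3p ratio kept their direction in each alternative run for them. Ratios were run only with a pseudocount of 10, with 1 locus per family and without each library. For miR398-3p, the log2 difference of 2.99 became 2.10 with the highest locus, 1.99 with the mean over listed loci, 2.05 with the locus at the corresponding place (chosen after the values were seen) and 2.51 with median centring. For miR398-5p, 2.25 became 1.59, 1.25 and 1.59 with the same 3 choices of locus. The miR398-3p to miR408-3p difference of 1.92 became 1.01 with the locus at the corresponding place. For the miR398 total, 2.69 became 1.85 with the highest locus, 1.69 with the mean over loci and 2.22 with median centring. Both miR408 arms moved by less than the spread between replicates in every alternative, and were lowest with median centring, at 0.60 (3p) and 0.67 (5p). Median centring took the median log2 difference of all 42 sums to -0.41, against 0.06 without it, and rescaling to the same listed sum took it to -0.15.

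Leaving out each library in turn gave log2 differences of 2.64 to 3.18 for miR398-3p, 1.82 to 2.61 for miR398-5p, 0.74 to 1.41 for miR408-3p and 0.78 to 1.35 for miR408-5p. The lowest of each was without *hws-1* replicate 2 and the highest without *hws-1* replicate 3. The 3p to 5p difference ranged from 0.46 to 1.08 in miR398 and from -0.35 to 0.18 in miR408. The number of sums that passed limma was 3, and it ranged from 2 to 5 over these fits, with 5 without *hws-1* replicate 1 and 5 without WT replicate 2. It was 5 with median centring. With the replicate block it was 6, and the differences were the same. The standard error there was 0.52 for each of the 4 sums, 1 value shared among them in limma and not the spread of any single sum. For the totals it came from the paired differences themselves, at 0.39 for miR398 and 0.40 for miR408. Depth limits miR408-5p most, at 21 to 64 reads a library in *hws-1* and 25 to 36 in WT.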
